A study of Homo sapiens with 12 samples.

Results

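Along the short arm of human chromosome 11, 10 genes near RRM1 that lie outside the TRIM family were followed in parental and gemcitabine (GEM)-resistant pancreatic cancer cells. In locus order these were NUP98, PGAP2, RHOG, FAM160A2, ARFIP2, TIMM10B, RRP8, ILK, TAF10 and TPP1. The 10 genes, of 58302 in the deposited table, were picked by name at 11p15.4 with earlier results of the BxPC-3-GR libraries known, so their difference between BxPC-3-GR and BxPC-3 is given as a description without a test. RNA was sequenced from 4 human pancreatic ductal adenocarcinoma cell lines in 3 libraries each. BxPC-3 and CFPAC-1 were the parental lines, labelled sensitive and epithelial. BxPC-3-GR, labelled resistant and mesenchymal, and CFPAC-1-GR, labelled resistant and epithelial, were each raised from their parental line by stepwise exposure to GEM. Each resistant line has 1 history of selection, and nothing says that its 3 libraries came from separate cultures, so the p-values below measure only the spread between these libraries.

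All 6 markers of ductal epithelium, keratins, EPCAM and CDH1, had a mean of at least 21.6 FPKM (fragments per kilobase of exon, scaled to the mapped fragments of the library) in every line. CDH1, the adhesion molecule of epithelial cells, stood at 45.3 FPKM in BxPC-3-GR and 43.0 in BxPC-3. BxPC-3-GR is labelled mesenchymal, and the paper describes that phenotype from cell shape, beside higher migration and invasion. CDH1 is 1 RNA and does not decide on the label. The leukocyte markers PTPRC and CD3E were at or near 0 in all lines, CD68, which other cells also express, averaged 3.28 FPKM in BxPC-3, 1.06 in BxPC-3-GR, 31.97 in CFPAC-1 and 11.3 in CFPAC-1-GR, 0 of 3 endothelial markers reached 1 FPKM, and at most 1 of 4 fibroblast markers did. The steps between low values gave an approximate depth of 12600000 to 25200000 mapped fragments per library. At that depth PGAP2, the lowest of the 10 genes, rested on about 33 fragments in its poorest library and 310 in its richest, and the other 9 genes on at least 70. Each value is an average over a culture, so more cells with an RNA and more RNA per cell cannot be told apart.

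RRM1 encodes the large subunit of ribonucleotide reductase, the enzyme that makes deoxynucleotides and that GEM inhibits, and its neighbour STIM1 encodes the calcium sensor of the endoplasmic reticulum. The 10 genes have varied roles and were grouped by their place on the chromosome. NUP98 is a nucleoporin of the nuclear pore, PGAP2 remodels the lipid of GPI anchors in the Golgi, and RHOG is a small GTPase of the Rac group. FAM160A2 is a subunit of the FHF complex, which ties endosomes to HOOK proteins, and ARFIP2 (arfaptin-2) binds ARF, ARL1 and RAC1 on membranes. TIMM10B is a small chaperone of mitochondrial protein import, RRP8 a nucleolar methyltransferase for ribosomal RNA, ILK the integrin-linked pseudokinase of focal adhesions, TAF10 a subunit of the transcription complexes TFIID and SAGA, and TPP1 a lysosomal tripeptidyl peptidase lost in a neuronal ceroid lipofuscinosis.

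On GRCh38 the genes spanned 2948 kb in 2 groups on either side of RRM1 (chr11:4094707-4138876). The 3 genes before it were packed within 170 kb, NUP98 at chr11:3671083-3797792, PGAP2 at chr11:3797724-3826371 and RHOG at chr11:3826978-3840983, and RHOG ended 254 kb before RRM1. The 7 genes after it began 2072 kb beyond RRM1, with FAM160A2 at chr11:6211335-6234711. ARFIP2 lay at chr11:6474683-6481479, TIMM10B at chr11:6481447-6484679, RRP8 at chr11:6595075-6603620, ILK at chr11:6603708-6610874, TAF10 at chr11:6606296-6612667 and TPP1 at chr11:6612763-6619461. The gap between RRM1 and FAM160A2 held 145 annotated genes, 101 of them with names of olfactory receptors, and 10 of the 145 had a mean of at least 1 FPKM over the 12 libraries.

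Of the 10 genes, 6 formed 3 head-to-head pairs that read away from a shared stretch of under 1000 bases, an arrangement found for 5450 of 27305 genes with RefSeq promoters (20.0%). The 3 stretches lie between listed start sites of both genes of a pair, read on the plus strand of GRCh38.p14 from RefSeq promoter windows. NUP98 has 2 listed promoters and PGAP2 has 6, so their stretch depends on the starts chosen. Capitals mark CCAAT or its reverse complement ATTGG, and CCGGAAG or its reverse complement CTTCCGG, the core letters of NFY and ETS sites.
NUP98 and PGAP2, chr11:3797555-3797719: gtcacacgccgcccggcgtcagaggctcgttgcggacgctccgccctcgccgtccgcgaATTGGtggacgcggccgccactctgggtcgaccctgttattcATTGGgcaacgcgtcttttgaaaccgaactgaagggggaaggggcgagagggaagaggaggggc
ARFIP2 and TIMM10B, chr11:6481332-6481500: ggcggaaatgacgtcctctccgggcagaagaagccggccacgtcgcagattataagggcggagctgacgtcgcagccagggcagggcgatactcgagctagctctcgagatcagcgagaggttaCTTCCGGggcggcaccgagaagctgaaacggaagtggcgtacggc
RRP8 and ILK, chr11:6603617-6603773: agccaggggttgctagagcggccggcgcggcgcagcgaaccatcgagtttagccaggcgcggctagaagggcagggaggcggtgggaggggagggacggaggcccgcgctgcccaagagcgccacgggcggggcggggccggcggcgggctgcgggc
The first stretch held ATTGG at 2 places, the second CTTCCGG at 1 place, and the third neither, with a GC content of 77.7% against 66.1% and 62.7%. Over 300-base windows of all 27305 genes, 35.7% held CCAAT and 10.7% held CCGGAAG on either strand. Promoter windows were listed for 8 of the 10 genes, all but RHOG and FAM160A2. The CREB site TGACGTCA was in the windows of PGAP2 and TAF10 and in 1.98% of all windows, and the GC box GGGCGG in 7 of the 8 and in 44.6% of all. The window of TPP1 had a GC content of 59.0%, below the 61.7% to 73.0% of the other 7. FAM160A2 also began 54 bases from a gene on the other strand, CNGA4, a channel subunit with a mean of 0.0485 FPKM.

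Levels in every BxPC-3-GR library exceeded those of BxPC-3 for 9 of the 10 genes, by 5.44-fold to 28.4-fold in mean FPKM, and NUP98 was lower in every library. Of 11710 genes tested, 4.14% met the criteria for an increase (limma adjusted p below 0.05 and log2FC above 1), 30.1% were higher without overlap and 36.0% lower. The 10 genes had been chosen from this stretch, so nothing is read from their share. RRM1 itself went from 29.1 ± 1.31 to 413 ± 14.9 FPKM (SD, n = 3) and STIM1 from 2.16 ± 0.0627 to 48.2 ± 6.02.

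**Figure D1:**
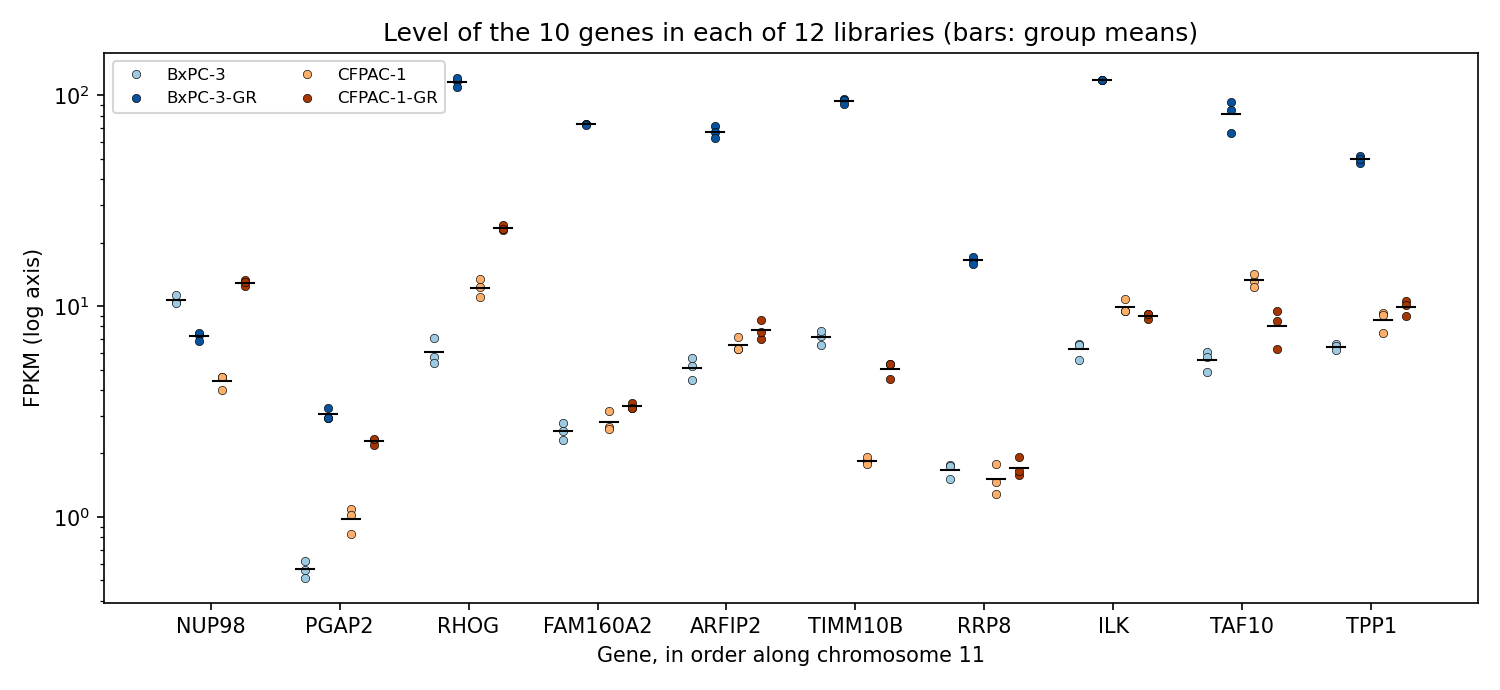
FPKM on a log axis (y) for the 10 genes in locus order (x), with 1 point per library, 3 libraries per line and a bar at each group mean. In BxPC-3-GR 9 genes sit above every other library, from 2.96 FPKM for PGAP2 to 121 for RHOG, whereas NUP98 is highest in CFPAC-1-GR. Of the genes after RRM1, TIMM10B stands higher (5.04 against 1.85 FPKM) and TAF10 lower (8.08 against 13.2) in CFPAC-1-GR than in CFPAC-1.

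NUP98, the first gene in locus order, measured 10.5, 11.2 and 10.3 FPKM in BxPC-3 and 7.27, 7.46 and 6.86 in BxPC-3-GR. Its mean was 1.49-fold lower in the resistant line, a log2FC of -0.51 ± 0.06 (SE) on the log2(FPKM + 1) scale. PGAP2, which starts in the same stretch and reads the other way, measured 0.619, 0.562 and 0.516 FPKM in BxPC-3 and 2.96, 2.96 and 3.30 in BxPC-3-GR. The groups of both genes stood apart, in opposite directions, so the first gene that was higher and the last that was not are the genes of 1 head-to-head pair.

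PGAP2 was 5.44-fold higher by its means. On the log2(FPKM + 1) scale its log2FC was 1.38 ± 0.06 (SE), and with a pseudocount of 0.1 it was 2.25, because the added 1 exceeds its level in BxPC-3. It passed the filter of a mean of 1 FPKM only through the BxPC-3-GR libraries. RHOG, which ends the group before RRM1, measured 7.08, 5.75 and 5.37 FPKM in BxPC-3 and 117, 121 and 109 in BxPC-3-GR, a 19.0-fold difference of means and a log2FC of 4.05 ± 0.10 (SE).

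The 7 genes beyond the olfactory receptors were all higher in BxPC-3-GR, with log2FC between 2.71 and 4.37 and a median of 3.55. FAM160A2 measured 2.31, 2.79 and 2.57 FPKM in BxPC-3 and 72.6, 73.1 and 72.0 in BxPC-3-GR. At 28.4-fold it had the largest ratio of the 10 genes, although it lies 2117 kb from the start of RRM1, and its libraries in BxPC-3-GR were among the closest to each other.

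The pair ARFIP2 and TIMM10B moved by nearly the same amount. ARFIP2 measured 5.65, 5.19 and 4.45 FPKM in BxPC-3 and 71.4, 67.1 and 62.4 in BxPC-3-GR, which is 13.1-fold and a log2FC of 3.48 ± 0.09 (SE). TIMM10B measured 7.18, 7.61 and 6.51 FPKM and then 96.3, 94.4 and 90.6, which is 13.2-fold and a log2FC of 3.55 ± 0.07 (SE). Of the 3 pairs, this one had the log2FC closest together.

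RRP8 and ILK, the pair with the GC-rich stretch, both stood apart between the lines but by unequal amounts. RRP8 measured 1.76, 1.51 and 1.74 FPKM in BxPC-3 and 16.5, 17.0 and 15.8 in BxPC-3-GR, which is 9.85-fold and a log2FC of 2.71 ± 0.06 (SE). ILK measured 6.59, 6.53 and 5.57 FPKM and then 118, 118 and 118, which is 18.9-fold and a log2FC of 4.04 ± 0.07 (SE). ILK had the highest mean of the 10 genes in BxPC-3-GR, with an SD of 0.223 FPKM over 3 libraries, and its range lay within that of RHOG.

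TAF10 measured 6.04, 4.88 and 5.73 FPKM in BxPC-3 and 66.3, 93.1 and 85.1 in BxPC-3-GR, which is 14.7-fold and a log2FC of 3.64 ± 0.14 (SE). It had the widest spread of the 10 genes in BxPC-3-GR, with an SD of 13.8 FPKM. Exons of TAF10 and ILK overlap on opposite strands over 2374 bases, 68.1% of the exon length of ILK and 38.9% of that of TAF10. Whether reads were counted by strand is not given in the sources used here, so the values of ILK and TAF10 may share reads and are uncertain. The exons of ARFIP2 and TIMM10B shared 33 bases, and those of NUP98 and PGAP2 shared 20.

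TPP1 measured 6.62, 6.44 and 6.22 FPKM in BxPC-3 and 51.3, 47.6 and 49.8 in BxPC-3-GR, which is 7.71-fold and a log2FC of 2.77 ± 0.05 (SE). It was the last gene of the stretch with a higher level. The next tested gene, MRPL17, a mitochondrial ribosomal protein 61.3 kb further on, averaged 7.87 FPKM in BxPC-3 and 4.13 in BxPC-3-GR, a log2FC of -0.80. The tested gene nearest to NUP98 on the other side, OSBPL5, lay 504 kb away and had a log2FC of -0.28.

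The genes further out were NAP1L4 and CARS before NUP98, with log2FC of 0.16 and 0.42, and EIF3F and RPL27A after TPP1, with -0.64 and 0.45. The difference in BxPC-3-GR was not unbroken within the stretch. Among the tested genes between RRM1 and FAM160A2, OR51B4, HBE1 and AC087380.1, named after their values were seen, had log2FC of -2.16, -2.20 and -1.58. HBE1 is the embryonic globin of the beta-globin cluster, which lies among the olfactory receptors.

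**Figure D2:**
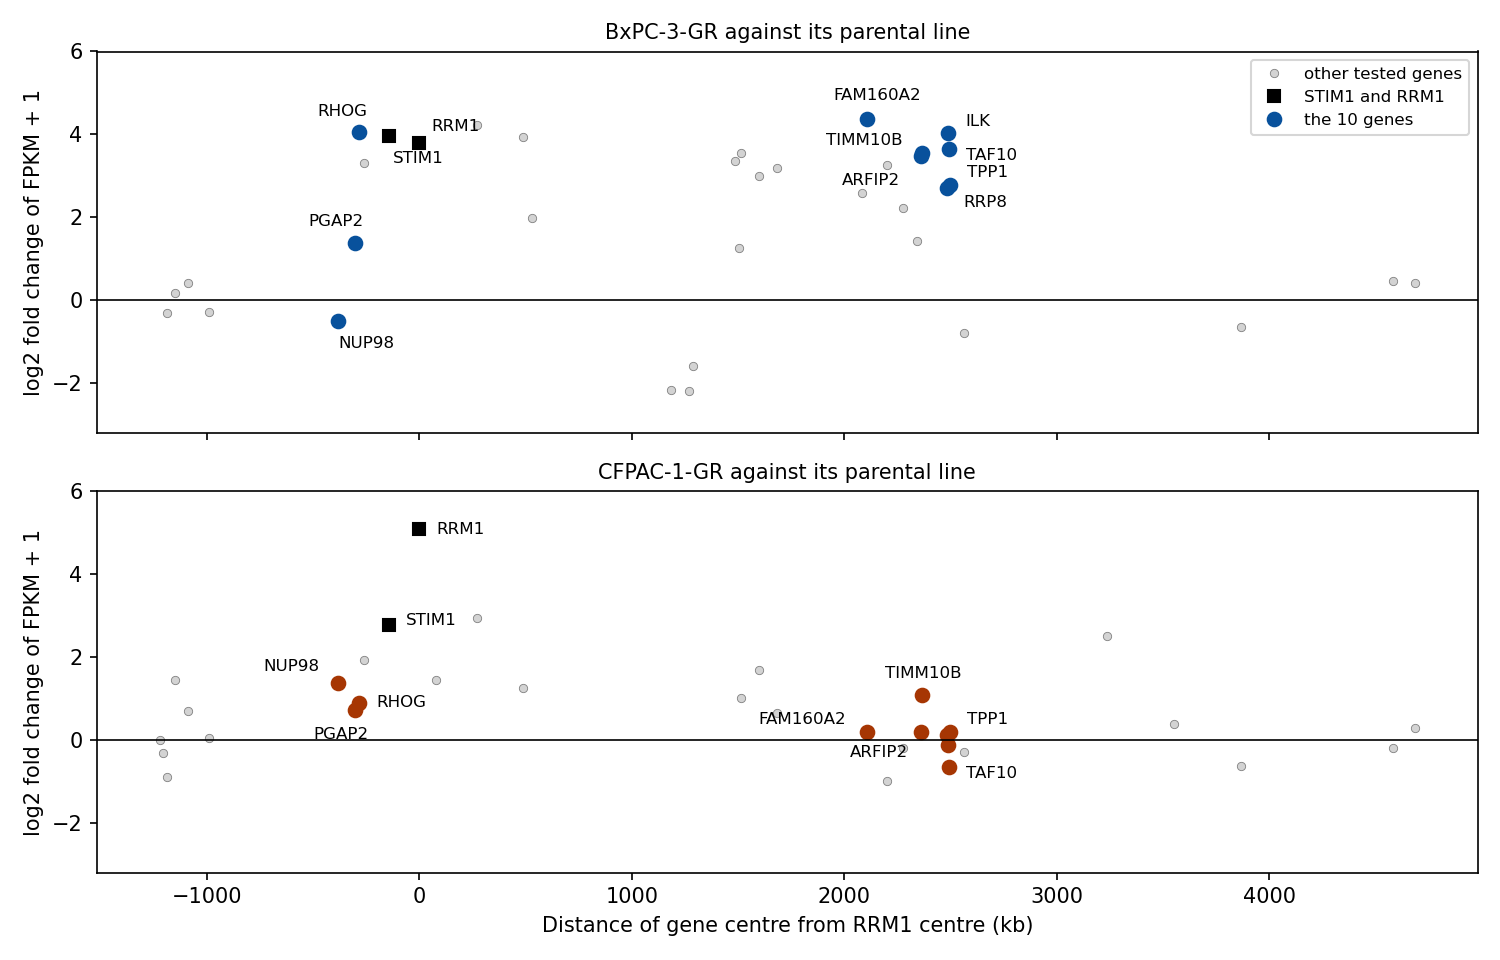
Difference of resistant against parental line as log2 fold change of FPKM + 1 (y) against the distance of each gene's centre from that of RRM1 in kb (x), for BxPC-3-GR above and CFPAC-1-GR below, with 1 point per tested gene. In BxPC-3-GR the points from PGAP2 to TPP1 are mostly high and drop at NUP98 (-0.51) and after TPP1. In CFPAC-1-GR RRM1 is at 5.08, STIM1 at 2.77 and the 10 genes lie between -0.66 and 1.37. The other tested genes there range from -0.997 (CAVIN3) to 2.95 (TRIM21), with SYT9 at 2.51 beyond TPP1.

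The CFPAC-1 libraries were compared to ask whether the same genes differed in the second resistant line. They are no untouched second set, because the members were chosen with earlier results of these data known. The paper had already listed RRM1, STIM1 and TIMM10B among its top RNAs that were higher in both resistant lines. On the values as deposited NUP98 and TIMM10B met the criteria for an increase in CFPAC-1-GR. No gene of the 10 met those for a decrease. FAM160A2, ARFIP2, RRP8 and TPP1 had log2FC between 0.12 and 0.20. The 2 genes called of 10, both up, compare with 32.2% of 12051 genes tested, 20.5% for increases alone. The 5 with a limma adjusted p below 0.05 compare with 79.6%. The median log2FC was 0.20 for the 10 genes and 0.13 for all genes tested. After a correction for GC content and length the genes called were RHOG and PGAP2, both up, beside 566 up and 479 down of 12030 genes. NUP98 and TIMM10B then had log2FC of 0.94 and 0.74, higher but under the threshold of 1. RRM1 went from 8.07 ± 0.809 to 306 ± 4.91 FPKM and STIM1 from 3.44 ± 1.46 to 28.5 ± 4.87 (SD, n = 3), which is 37.9-fold and 8.29-fold, while the largest ratio among the 10 genes was the 2.93-fold of NUP98.

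Scaling mattered in this line. The median log2FC of all genes was 0.13 as deposited, -0.13 after median-of-ratios scaling and -0.24 after upper-quartile scaling. The split of calls over all genes was 2473 up and 1407 down as deposited, 1718 up and 2290 down after median-of-ratios scaling, and 1454 up and 2652 down after upper-quartile scaling. The log2FC of genes in CFPAC-1-GR also fell with GC content, with a Spearman rho across 12030 genes of -0.777, against 0.0388 across 11685 genes in BxPC-3-GR (genes are no independent replicates). Values after a correction by GC content and length are therefore given beside those as deposited. The 10 genes had GC contents from 46.1% in TIMM10B to 60.2% in RHOG.

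NUP98 measured 4.00, 4.63 and 4.58 FPKM in CFPAC-1 and 13.3, 12.4 and 13.0 in CFPAC-1-GR, a 2.93-fold rise of the mean. Its log2FC was 1.37 ± 0.07 (SE, limma adjusted p = 8.2e-06), higher in 3 of 3 libraries. Relative to the median of all genes the difference was 1.24 as deposited, 1.23 after median-of-ratios and 1.22 after upper-quartile scaling, and the log2FC was 0.94 after the GC correction, below the threshold of 1. NUP98 thus went up in CFPAC-1-GR, where 45.7% of all genes were higher without overlap, and was lower in BxPC-3-GR.

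PGAP2 measured 0.828, 1.09 and 1.02 FPKM in CFPAC-1 and 2.32, 2.19 and 2.35 in CFPAC-1-GR, which is 2.33-fold. Its log2FC of 0.73 ± 0.07 (SE, limma adjusted p = 9.3e-05) missed the threshold of 1, and it was 1.24 after the GC correction and 1.15 with a pseudocount of 0.1, both called. RHOG measured 11.04, 13.4 and 12.2 FPKM and then 22.8, 24.2 and 23.3, which is 1.92-fold. Its log2FC was 0.89 ± 0.08 (SE, limma adjusted p = 6.0e-05), and 1.81 after the GC correction. All 3 genes before RRM1 were higher in every CFPAC-1-GR library, as were 45.7% of all genes. Outside the stretch, NAP1L4 and CARS were also higher in every library, with log2FC of 1.46 and 0.71, and OSBPL5 had 0.05. Beyond TPP1, MRPL17 had -0.30, SYT9 2.51 and CYB5R2 0.38. After the GC correction the log2FC increased from NUP98 over PGAP2 to RHOG, and was 3.11 for STIM1 and 4.35 for RRM1. Neither the values as deposited nor those after median-of-ratios or upper-quartile scaling had this order.

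TIMM10B was the other gene called up on the values as deposited. It measured 1.83, 1.92 and 1.78 FPKM in CFPAC-1 and 4.52, 5.29 and 5.33 in CFPAC-1-GR, which is 2.73-fold, with a log2FC of 1.08 ± 0.08 (SE, limma adjusted p = 1.9e-05). The log2FC was 0.86 after median-of-ratios scaling, 0.76 after upper-quartile scaling and 0.74 after the GC correction, all under the threshold of 1. Its partner in the pair, ARFIP2, measured 7.10, 6.27 and 6.23 FPKM and then 6.96, 7.57 and 8.55, and these groups overlapped, with a log2FC of 0.20 ± 0.09 (SE, limma adjusted p = 0.077).

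FAM160A2 measured 3.19, 2.68 and 2.61 FPKM in CFPAC-1 and 3.30, 3.46 and 3.27 in CFPAC-1-GR. The highest CFPAC-1 library lay just under the lowest CFPAC-1-GR library, and the log2FC of 0.19 ± 0.08 (SE) had a limma adjusted p of 0.065. It was 0.88 after the GC correction and -0.04 after median-of-ratios scaling. RRP8 measured 1.29, 1.47 and 1.77 FPKM and then 1.91, 1.58 and 1.65, so the groups overlapped, with a log2FC of 0.12 ± 0.09 (SE, limma adjusted p = 0.29) that was -0.35 after the GC correction.

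ILK measured 10.8, 9.50 and 9.52 FPKM in CFPAC-1 and 8.70, 9.16 and 9.18 in CFPAC-1-GR. It was lower in every library by a little, with a log2FC of -0.13 ± 0.07 (SE, limma adjusted p = 0.16), and was 0.40 after the GC correction. TAF10 measured 13.1, 12.3 and 14.2 FPKM and then 6.29, 9.46 and 8.49, a mean 1.64-fold lower. Its log2FC of -0.66 ± 0.14 (SE, limma adjusted p = 0.0038) missed the threshold as deposited, was -0.77 after the GC correction, and met the threshold after upper-quartile scaling with -1.05.

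TPP1 measured 7.46, 9.24 and 9.03 FPKM in CFPAC-1 and 8.99, 10.5 and 10.2 in CFPAC-1-GR, so the groups overlapped. Its log2FC was 0.19 ± 0.10 (SE, limma adjusted p = 0.13). Over the 10 genes, 5 were higher in every library, 2 lower and 3 overlapped, where 45.7% of all genes were higher and 36.4% lower without overlap. Before RRM1 the median log2FC of the 3 genes was 0.89, and after it the median of the 7 genes was 0.19, with a range from -0.66 to 1.08.

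**Figure D3:**
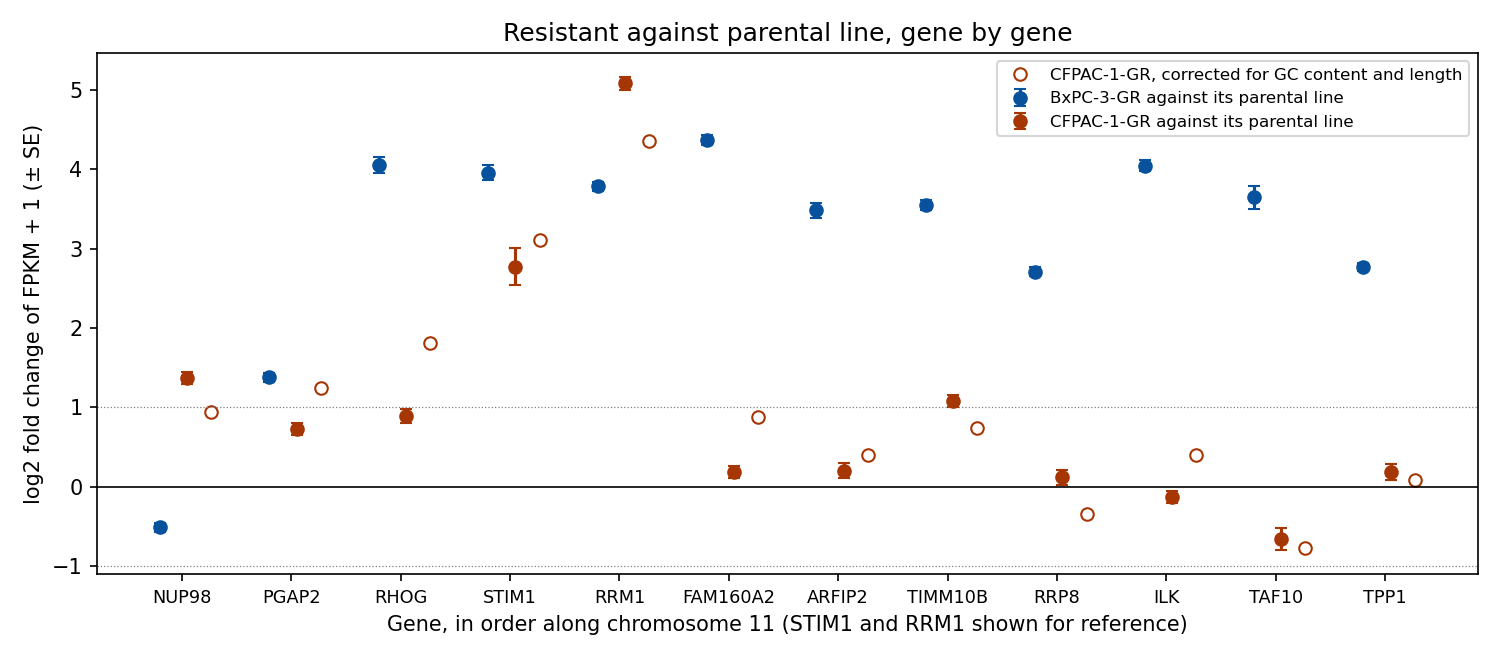
Log2 fold change of FPKM + 1 with its SE (y) for the 10 genes and, for reference, STIM1 and RRM1, in locus order (x). Filled points are resistant against parental line as deposited, open points CFPAC-1-GR after correction for GC content and length, and dotted lines mark 1 and -1. NUP98 is the gene with a negative value in BxPC-3-GR (-0.51) and the highest of the 10 in CFPAC-1-GR as deposited (1.37). The open points rise from 0.94 at NUP98 to 1.81 at RHOG, an order that the filled CFPAC-1-GR points do not have.

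The 2 parental lines also differed in several of the genes. This comparison shares the BxPC-3 libraries with the one that marked the stretch, and its values are set side by side here. Of 9 genes that passed the filter, NUP98 and TIMM10B were lower in CFPAC-1 than in BxPC-3, with log2FC of -1.11 and -1.51, and TAF10 was higher, with 1.12, all past the limma criteria, which 44.5% of 11842 genes met in either direction. The call of NUP98 was lost after the GC correction (-0.79), median-of-ratios scaling (-0.999) and upper-quartile scaling (-0.85), whereas RHOG, at 0.91 as deposited, was called after these scalings with 1.03 and 1.17 and had -0.16 after the GC correction. TIMM10B averaged 7.10 ± 0.552 FPKM in BxPC-3 and 1.85 ± 0.0712 in CFPAC-1 (SD, n = 3), a 3.84-fold difference. ARFIP2, which shares its stretch, differed less, with 5.10 ± 0.604 against 6.53 ± 0.488 FPKM. PGAP2 stayed under the filter, with 0.565 ± 0.0515 against 0.981 ± 0.136 FPKM.

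FPKM are per length, so the levels of the 10 genes were ordered within a line, without a correction for GC content. The places of ILK and TAF10, which may share reads, are uncertain. In BxPC-3 the order was led by NUP98 at 10.7 FPKM, followed by TIMM10B, TPP1, ILK, RHOG, TAF10 and ARFIP2 between 7.10 and 5.10, whose neighbours overlapped in their libraries, and then FAM160A2, RRP8 and PGAP2, each apart from the next. In BxPC-3-GR the order was ILK, RHOG, TIMM10B, TAF10, FAM160A2, ARFIP2, TPP1, RRP8, NUP98 and PGAP2. ILK and RHOG overlapped, as did TIMM10B with TAF10 and TAF10 with FAM160A2. NUP98 thus went from the first place to the ninth, while PGAP2 was last in both lines of BxPC-3.

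In CFPAC-1 the order was TAF10, RHOG, ILK, TPP1, ARFIP2, NUP98, FAM160A2, TIMM10B, RRP8 and PGAP2, from 13.2 to 0.981 FPKM, and TAF10 and RHOG were the neighbours that overlapped. In CFPAC-1-GR RHOG was first at 23.4 FPKM and NUP98 second at 12.9, then TPP1, ILK, TAF10 and ARFIP2 between 9.90 and 7.69 with overlapping neighbours, and TIMM10B, FAM160A2, PGAP2 and RRP8 each apart from the next.

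The genes most like each member were sought by Pearson r of log2(FPKM + 1) over the 12 libraries among 12210 genes. The 12 libraries form 4 groups of 3, so r mainly compares 4 group means, and it is given as a description. The most similar genes of NUP98 were HSPA4, RARS and GOSR1, with r of 0.995, 0.994 and 0.991. None of its 10 most similar genes lay in the stretch, and the same held for RHOG. For PGAP2 they were AC090587.2, FUCA1 and STIM1 (0.992, 0.986 and 0.981), the first and the third of them from the stretch.

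Among the 10 most similar genes of each member after RRM1, 1 to 4 lay in the stretch, which held 25 of the 12210 genes compared. The BxPC-3-GR levels for which the members were chosen enter r, so a likeness within the stretch follows in part from that choice. For ARFIP2 they were ILK, FAM160A2 and TPP1 (0.996, 0.994 and 0.994), for FAM160A2 they were IGSF1, ARFIP2 and VGLL4 (0.996, 0.994 and 0.994), and for TPP1 they were ARFIP2, KDM1A and ILK (0.994, 0.993 and 0.991). ILK was closest to RCOR2, ARFIP2 and TMCO3 (0.998, 0.996 and 0.994), RRP8 to VGLL4, FAM160A2 and NAV2 (0.995, 0.994 and 0.994), and TAF10 to LARP6, RCOR2 and SOX21 (0.989, 0.987 and 0.985). RHOG was closest to PNRC1, BICDL2 and TPST1 (0.981, 0.981 and 0.980) and TIMM10B to SMURF1, CCL20 and NECTIN4 (0.994, 0.991 and 0.990), genes on other chromosomes.

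To see whether the complexes and pathways of the 10 genes moved with them, 131 partner genes in 10 lists were read from the same fits. The lists were written from the roles of the members with earlier results known, and 1 of the partners, CTSD, lies within 3 Mb of RRM1. In BxPC-3-GR 0 partners rose and 4 of 105 tested fell by the limma criteria, which is 3.81% against 7.76% of all genes. At an unadjusted p below 0.05, without a limit on size, 22 partners were higher and 45 lower, that is 20.95% and 42.86%, against 28.28% and 34.28% of all genes. The median log2FC of the partners was -0.13, and the highest value, that of the GPI transamidase subunit GPAA1, was 0.99. After median-of-ratios scaling 2 partners were up and 1 down, beside 531 up and 376 down of 11715 genes. After upper-quartile scaling 1 was up and 4 were down, beside 492 up and 419 down of 11710 genes. With a pseudocount of 0.1 on the log scale 11 partners were called, beside 1429 of 11710 genes.

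The partners that fell in BxPC-3-GR were mostly of the nucleolar list of RRP8. NOP56, a core protein of the box C/D particles that guide ribosomal RNA methylation, fell with a log2FC of -1.27 (limma adjusted p = 0.00020), FBL, the methyltransferase fibrillarin, with -1.02, and NOP2, another rRNA methyltransferase, with -1.04. The fourth was TAF13, a TFIID subunit from the list of TAF10, with -1.02. FBL, NOP2 and TAF13 were named after their values were seen, and after median-of-ratios scaling their log2FC were -0.97, -0.996 and -0.97 and their calls were lost, while NOP56 had -1.22. The calls of FBL and NOP2 were also lost without the first BxPC-3 library (-0.95 and -0.97) or the third BxPC-3-GR library (-0.91 and -0.95), and that of TAF13 without the second library of BxPC-3 (-0.90) or of BxPC-3-GR (-0.98). After the GC correction FBL (-0.94) and TAF13 (-0.91) were not called. RRP8 itself was 9.85-fold higher in these libraries, opposite in direction to these 3 partners of its list.

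In CFPAC-1-GR, 23 partners rose and 13 fell of 107 tested, 33.6% against 32.2% of all genes, and the split was 15 up and 22 down after median-of-ratios scaling and 12 up and 26 down after upper-quartile scaling. The partners that rose had GC contents of 34.9% to 52.4% and those that fell 51.6% to 66.7%. After correction for GC content and length 5 partners were called, beside 1045 of 12030 genes. NOP58 and TRIO were up and ARF4, PIGT and TADA3 down, of which ARF4, PIGT and TRIO are named because of these values. The partner values of CFPAC-1-GR below are as deposited, each with a limma adjusted p of at most 0.0025 and no overlap between the groups. Except for NOP58 and TADA3, the calls of those named below were lost with that correction. As deposited, 20.5% of all genes were up and 32.2% called in either direction, the shares to set beside the list counts below.

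The Y-complex list of NUP98, the scaffold of the nuclear pore, had 4 of 10 members up in CFPAC-1-GR and none down, with a median log2FC of 0.87. These were AHCTF1, NUP107, NUP160 and NUP43, with log2FC of 1.88, 1.56, 1.14 and 1.03 (limma adjusted p of at most 3.4e-05), and NUP98 had 1.37. After the GC correction none of this list was called, and NUP98 had 0.94. In BxPC-3-GR none of the 10 was called, the median was -0.31, and NUP98 had -0.51. NUP98 was the member whose value lay within the range of its partners in both lines.

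The GPI anchor list of PGAP2 had 2 up and 2 down of 11 tested in CFPAC-1-GR. PIGK, the protease of the transamidase, and PIGM, a mannosyltransferase, rose by log2FC of 1.81 and 1.14. GPAA1 and TMEM8A, the latter a phospholipase for GPI anchors, had -1.74 and -1.53. In BxPC-3-GR none of 9 was called. Of the RHOG list, DOCK5, an exchange factor, rose with 1.44, and RAC2, RAC3 and the adaptor ELMO3 fell with -1.32, -1.28 and -1.20, as part of 3 up and 3 down of 12 tested, while none of 11 was called in BxPC-3-GR, where RHOG was 19.0-fold higher.

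The FHF list of FAM160A2 had 3 up of 5 tested in CFPAC-1-GR, the adaptors HOOK1 and HOOK3 with 2.02 and 1.56 and the related FAM160B1 with 1.28, and none of 6 called in BxPC-3-GR. HOOK3 had a log2FC of 0.74 in BxPC-3-GR and was higher in every library there. For ARFIP2, the relative ARFIP1 and the small GTPase ARL1 rose with 1.35 and 1.14 and ARF5 fell with -1.47, of 9 tested, and none was called in BxPC-3-GR. Of the small TIM list of TIMM10B, TIMM13 and TIMM10 fell in CFPAC-1-GR with -1.42 and -1.07, of 7 tested, while TIMM10B rose there. TIMM10, which forms the chaperone ring with TIMM9, had -0.88 in BxPC-3-GR. Without the second library of CFPAC-1 or of CFPAC-1-GR, its value in CFPAC-1-GR was -0.97 or -0.87 and its call was lost.

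The RRP8 list had 3 up and 1 down of 9 in CFPAC-1-GR, among them NOP58, which pairs with NOP56, with 2.24, and the deacetylase SIRT1 and the methyltransferase SUV39H1, which form a silencing complex with RRP8, with 1.10 and -1.32. Without the first CFPAC-1-GR library SIRT1 had 0.95 and was not called. In the ILK list PARVA, the parvin that binds ILK, rose with 1.54 and ITGB1, the beta-1 integrin, with 1.34, and PXN (paxillin) fell with -1.05, of 9 tested. In BxPC-3-GR none of 10 was called, with a median of -0.37 and PARVA at -0.98, while ILK was 18.9-fold higher.

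The TFIID and SAGA list of TAF10 had 3 up and 2 down of 24 tested in CFPAC-1-GR. TAF2, TAF9B and TAF7 rose with 1.88, 1.87 and 1.34, and TADA3, a SAGA subunit, fell with -1.49. Of 26 tested in BxPC-3-GR, only TAF13 was called. In the list of TPP1, with other genes of neuronal ceroid lipofuscinosis and lysosomal proteases, LAMP2 rose with 1.29 and CLN6 fell with -1.13 in CFPAC-1-GR, of 12 tested, and none of 9 was called in BxPC-3-GR.

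**Figure D4:**
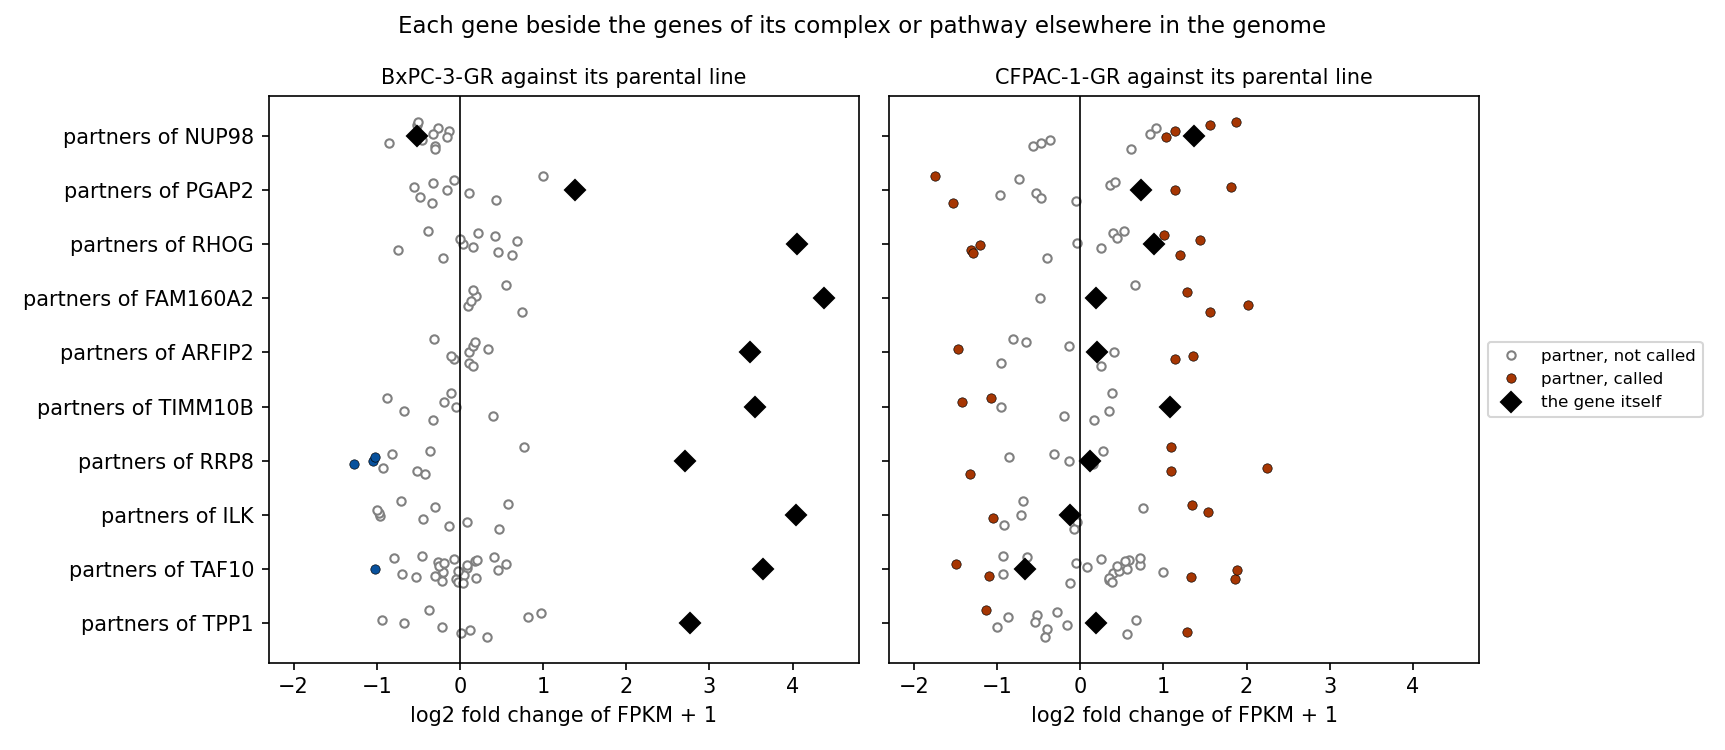
Log2 fold change of FPKM + 1 (x) in BxPC-3-GR (left) and CFPAC-1-GR (right) for each of the 10 genes (black diamonds) and the genes of its list (circles, coloured where called), 1 row per gene in locus order. In BxPC-3-GR the diamonds from PGAP2 to TPP1 lie right of all partners, of which the highest is 0.99, and NUP98 lies among its own. In CFPAC-1-GR 9 diamonds lie within the range of their own list, and that of TIMM10B, at 1.08, lies above its list.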

How the data were processed

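Libraries were grouped by the cell line in their labels, 3 per line. Expression was deposited by the authors in 1 table as FPKM over 58302 genes of GRCh38, that is, fragments divided by exon length and by mapped fragments, with no counts. The submitters' processing notes list Trimmomatic 0.27, FastQC 0.10.1 and TopHat2 2.0.8, and strand use in counting is not given in the sources used here. Because low values were whole multiples of 1 fragment for 55.1% to 64.9% of cases only (tolerance 0.05), the implied depth is approximate and no count test was run, while the study's methods name a test for counts.

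Resistant and parental libraries of a line, and the 2 parental lines, were compared by limma 3.58.1 in R 4.3.3 on log2(FPKM + 1), which understates the change of low genes. Tested were genes that averaged 1 FPKM or more over the 6 libraries, with Benjamini-Hochberg adjustment over all of them. A gene was called when its adjusted p was below 0.05 and its log2FC above 1 in size. An exact 2-sided permutation test of 3 against 3 cannot go below 0.1 and was not used. The fit was tested on simulated data. Exon positions, lengths and GC contents came from GENCODE 29, which held 58039 of the genes, and promoters from RefSeq on GRCh38.p14. The correction for GC content and length subtracted a spline with 5 degrees of freedom from the log ratios. A repeated identifier of a partner gene, outside GENCODE 29, was left out. Tables and plots were made with Python 3.11.15, pandas 2.3.3 and matplotlib 3.10.9.

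The members and the partner lists were chosen with earlier results of these data known. Named were all 10 members, RRM1 and STIM1, the 3 genes most like each member, at most 4 called genes per list with the largest absolute log2FC, the 3 nearest tested genes on either side, and genes that overlap a member or start within 1 kb of it on the other strand. Alternatives were another pseudocount, no filter, all 12 libraries in 1 fit, a replicate block, the GC correction with and without the block, 2 scalings, and each library left out in turn.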

Additional observations from a re-analysis of the deposited data

Results flagged for a closer look

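Some genes differed in opposite directions in the 2 resistant lines, with no overlap between resistant and parental libraries in either line. The difference between the lines was not tested for any of them. Among the 10 genes, NUP98 had log2FC of -0.51 in BxPC-3-GR against 1.37 in CFPAC-1-GR, ILK 4.04 and -0.13, and TAF10 3.64 and -0.66. ILK and TAF10 may share reads. The value of ILK in CFPAC-1-GR had a limma adjusted p of 0.16 and was 0.40 once corrected by GC content and length.

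The partner genes are given in the same order, BxPC-3-GR first. In the nuclear pore list the values were -0.51 and 1.88 for AHCTF1, -0.51 and 1.56 for NUP107, -0.13 and 1.14 for NUP160, and -0.15 and 1.03 for NUP43. In the GPI anchor list they were -0.33 and 1.81 for PIGK, 0.99 and -1.74 for GPAA1, and -0.55 and 1.14 for PIGM, whose value in CFPAC-1-GR was -0.0608 after that correction. RAC3 had 0.46 and -1.28, and ARF5 had 0.34 and -1.47. In the RRP8 list NOP58 had -0.92 and 2.24, NOP56 -1.27 and 0.15, and SIRT1 -0.52 and 1.10. The value of NOP56 in CFPAC-1-GR had a limma adjusted p of 0.092. It was -0.13 after median-of-ratios and -0.25 after upper-quartile scaling. In the ILK list PARVA had -0.98 and 1.54, and ITGB1 -0.29 and 1.34. In the TAF10 list TADA3 had 0.56 and -1.49, and TAF7 -0.52 and 1.34.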

How the results depend on the processing

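In CFPAC-1-GR 2 of 10 members were called as deposited, 3 with a pseudocount of 0.1, and 1 after median-of-ratios (NUP98) or upper-quartile scaling (TAF10). Of all genes, 3880 of 12051 were called as deposited and 5365 of 12051 with that pseudocount. After median-of-ratios scaling 4008 of 11966 were called, and after upper-quartile scaling 4106 of 11937. Leaving out 1 library at a time gave 2 to 2 called members there and 3 to 4 between the parental lines, the added one being RHOG (1.01) without the first BxPC-3 library. Called partners in BxPC-3-GR were 4 as deposited and 11 with a pseudocount of 0.1, and 3 to 6 with 1 library left out. Those in CFPAC-1-GR were 36 as deposited, 34 to 39 with 1 library left out, and 5 after the GC correction with or without the block.

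The log2FC of several genes changed sign, among them PIGM and ARL1, called with 1.14 each as deposited. After median-of-ratios and upper-quartile scaling the log2FC in CFPAC-1-GR were -0.044 and -0.14 for FAM160A2, -0.062 and -0.18 for ARFIP2, -0.069 and -0.15 for RRP8, and -0.085 and -0.20 for TPP1. After the GC correction they were -0.35 for RRP8, 0.40 for ILK, -0.0608 for PIGM and -0.045 for ARL1. Between the parental lines the GC correction gave -0.16 for RHOG, -0.71 for FAM160A2, -0.040 for ARFIP2, 0.28 for RRP8 and -0.10 for ILK, and upper-quartile scaling 0.090 for RRP8. The cause was not tested.

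No clear pairing of samples by replicate number was seen, which does not exclude one. Deviations of same-numbered libraries correlated between -0.134 and 0.0895. With the number as a replicate block 2 members were called in CFPAC-1-GR and 3 between the parental lines, with 4 partners called in BxPC-3-GR, while CFPAC-1-GR had 36, the counts without it. With the block and the GC correction in 1 fit these were 2, 2, 3 and 5. The cultures behind the libraries, DNA copy number and read strand were not analysed here. Depth limits PGAP2 most.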
